A study of Mus musculus with 3 samples.

Results

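The 228 regions described here are the distal Twist1 ChIP-seq peaks of the endocardial cushions with the most tags that no listed peak of the other tissues overlapped over 5% of their length or more. They were chosen by 4 conditions applied to the 10965 peaks of the E12.5 endocardial cushion cell (ECC) list, out of 67468 peaks in all 3 lists. A peak had to lie on an assembled chromosome, to be overlapped over less than 5% of its own length by any single limb bud or PNST peak, to lie above 5 kb and at most 50 kb from the nearer gene named in the list, and to hold at least 10 tags, a tag being a sequenced read kept after the duplicate filter. There were 7233 ECC peaks under that limit of overlap, 2565 of them were also distal, and 228 (2.08% of the ECC list) also had 10 tags or more. Tags, fold enrichment, p-value, overlap and distance therefore chose the members or come from the same reads, and they are described here without a test.

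ChIP-seq with an antibody against Twist1 (Sigma, 5 μg) was performed in 3 mouse samples whose labels all give the FVB/N strain and no treatment. The ECC sample was the atrioventricular canal cushion at E12.5, the Limb sample was the forelimb bud at E10.5, and the PNST sample was a cultured peripheral nerve sheath tumor cell line, for which no mutation is given in the labels. Each sample pooled tissue of several litters or cells of several plates and was sequenced as 1 library, so no value has a replicate error. Peak lists carry no expression, so the labelled cell types could not be checked against marker genes. After the duplicate filter 3149934 tags were left for ECCs, 14893391 for Limb and 11823220 for PNST, and the weakest listed peaks held 5, 8 and 7 tags. In share of filtered tags, 10 tags in ECCs correspond to 47.3 tags in Limb and 37.5 in PNST. A member has no value in the Limb and PNST lists, which hold listed peaks only, and this is no measurement of 0 there. In whole tissue, fewer bound cells and less binding per cell cannot be told apart.

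Twist1 belongs to the basic helix-loop-helix family of transcription factors, whose dimers bind E-boxes, sites of the form CANNTG. The pattern CANNTG reads the same on both strands, although a single site such as CACCTG, which is CAGGTG on the other strand, need not. In the endocardial cushions, the mesenchymal swellings from which the heart valves form, it is known for promoting the proliferation and migration of the cells. Distal elements of developmental genes are one of the places where factors of this family act. The genome also holds many copies of tandem arrays and interspersed repeats, and a read that fits several copies cannot be assigned to one of them from its sequence alone.

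The members whose sequences show the E-boxes most densely were tandem arrays, chosen here after their values were seen as the 5 members with the most E-boxes in the whole peak. Each line gives 50 bp on either side of the summit, the base with the most tags, on the plus strand of mm9, with every E-box in capitals.
Vti1a window, chr19:55443413-55443513: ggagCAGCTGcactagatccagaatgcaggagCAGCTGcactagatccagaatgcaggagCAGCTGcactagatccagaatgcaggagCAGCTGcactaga
Cdh26 window, chr2:178263672-178263772: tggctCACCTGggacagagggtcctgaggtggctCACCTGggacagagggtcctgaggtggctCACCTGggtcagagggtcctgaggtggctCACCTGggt
Mir684-1 window, chr11:74901783-74901883: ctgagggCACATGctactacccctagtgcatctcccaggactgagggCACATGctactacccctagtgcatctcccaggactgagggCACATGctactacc
Cript window, chr17:87447406-87447506: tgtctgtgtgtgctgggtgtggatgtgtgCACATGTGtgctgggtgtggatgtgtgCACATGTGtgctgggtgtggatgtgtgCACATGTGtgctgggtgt
Smurf2 window, chr11:106807562-106807662: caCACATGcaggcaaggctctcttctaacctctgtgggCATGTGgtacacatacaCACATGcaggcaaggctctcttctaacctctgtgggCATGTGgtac
The same unit recurs along each of these windows, and most repeats of the unit carry at least 1 E-box. The peak near Vti1a, a SNARE of vesicle transport, held 20 E-boxes over a unit of 28 bp, all 4 in its window being CAGCTG. The peak near Cdh26, a cadherin, held 18 over a unit of 29 bp, with CACCTG in the window. In the peak near Cript, a partner of postsynaptic scaffold proteins, which held 16 E-boxes over a unit of 27 bp, the E-boxes of the window overlapped in pairs. The peak labelled Mir684-1 lay in intron 13 of Smg6, a nuclease of nonsense-mediated decay, and held 15 over a unit of 40 bp. The peak near Smurf2, a ubiquitin ligase that acts on SMADs, held 10 over a unit of 53 bp. Of the 228 members, 16 (7.02%) held 5 or more E-boxes. This also held for 7.92% of the distal ECC peaks of 10 tags or more that a Limb or PNST peak overlapped. Over all ECC peaks on assembled chromosomes, which had a shorter median length, the share was 2.53%. The 7 members with 7 or more E-boxes all had most genome copies of their summit sequence within 100 kb.

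The 5 members with the most tags are shown next, because they lie in 2 known gene arrays.
Rn4.5s window, chr6:47708735-47708835: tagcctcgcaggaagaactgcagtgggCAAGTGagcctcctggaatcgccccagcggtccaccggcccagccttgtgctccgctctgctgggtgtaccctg
Rn4.5s window, chr6:47721967-47722067: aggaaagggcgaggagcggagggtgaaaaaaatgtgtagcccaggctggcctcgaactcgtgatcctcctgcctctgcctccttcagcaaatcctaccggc
Snord116l1 window, chr7:67029619-67029719: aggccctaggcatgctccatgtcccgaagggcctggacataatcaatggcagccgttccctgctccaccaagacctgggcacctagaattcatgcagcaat
Snord116l1 window, chr7:67031622-67031722: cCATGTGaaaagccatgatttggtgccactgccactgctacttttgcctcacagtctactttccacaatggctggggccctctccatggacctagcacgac
Snord116l1 window, chr7:67039672-67039772: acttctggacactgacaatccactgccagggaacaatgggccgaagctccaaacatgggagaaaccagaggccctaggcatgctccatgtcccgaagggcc
Rn4.5s is the tandem array of genes for the rodent 4.5S RNA on chromosome 6, and Snord116l1 belongs to the imprinted cluster of small nucleolar RNAs on chromosome 7. The 3 Snord116l1 members shared stretches of 32 bases with each other. Only 2 of these 5 windows hold an E-box, 1 in each array.

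The windows of 4 of the 5 members with the highest fold enrichment, which sets the summit against the local background of its own library, carried different sequences.
Tmem171 window, chr13:99438168-99438268: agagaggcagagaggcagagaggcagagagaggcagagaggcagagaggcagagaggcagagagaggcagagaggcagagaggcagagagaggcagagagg
Rpp21 window, chr17:36368200-36368300: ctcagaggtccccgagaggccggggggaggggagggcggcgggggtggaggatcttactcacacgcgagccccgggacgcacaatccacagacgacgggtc
Tmem202 window, chr9:59360782-59360882: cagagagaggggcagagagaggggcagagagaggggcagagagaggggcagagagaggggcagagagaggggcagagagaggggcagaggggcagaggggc
Npffr2 window, chr5:89986542-89986642: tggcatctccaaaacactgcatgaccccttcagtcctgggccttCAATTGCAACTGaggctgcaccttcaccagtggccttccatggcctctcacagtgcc
The windows near Tmem171 and Tmem202 consist of a short purine-rich unit. The window near Npffr2, a neuropeptide receptor gene, holds a pair of adjacent E-boxes, and the window near Rpp21, a subunit of ribonuclease P, holds none.

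The last set shows members whose sequence recurs elsewhere in the genome. The windows near Fgf9, a growth factor, and Cdh20, a cadherin, were taken as list genes with an E-box, and the other 3 were chosen after their values were seen to stand for groups of members with shared sequence.
Xdh window, chr17:74210545-74210645: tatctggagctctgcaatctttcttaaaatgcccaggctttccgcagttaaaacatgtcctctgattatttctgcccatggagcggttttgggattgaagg
Fgf9 window, chr14:58671443-58671543: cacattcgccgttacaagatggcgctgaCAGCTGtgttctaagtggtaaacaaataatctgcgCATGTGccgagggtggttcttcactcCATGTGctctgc
Serpine2 window, chr1:79860804-79860904: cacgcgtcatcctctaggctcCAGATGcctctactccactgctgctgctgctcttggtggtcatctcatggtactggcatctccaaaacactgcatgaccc
Cdh20 window, chr1:106916726-106916826: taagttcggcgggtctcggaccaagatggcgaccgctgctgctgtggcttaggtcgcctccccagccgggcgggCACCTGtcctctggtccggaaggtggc
Gm9880 window, chr17:13515426-13515526: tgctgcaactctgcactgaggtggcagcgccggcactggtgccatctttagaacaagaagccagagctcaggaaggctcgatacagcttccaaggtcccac
The Serpine2 window ends in letters that recur at the start of the Npffr2 window above, and both peaks belonged to 1 group of 14 members with shared sequence.

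Tags of the members were concentrated near the threshold. The median was 11 tags (range 10 to 74), 100 members had exactly 10 tags, 201 had 10 to 14, 12 had 15 to 19 and 15 had 20 or more. Just inside the limit, the 100 members at 10 tags had a median fold enrichment of 17.2 and a median length of 269.5 bp. Just outside it, the 107 ECC only distal peaks at 9 tags had a median fold enrichment of 17.6 and a median length of 232 bp. Fold enrichment was close on both sides of the limit, and the median length was higher inside it. Fold enrichment of all members had a median of 16.005 (range 3.66 to 75.9), and peak length a median of 294 bp (range 107 to 851). The p-value from MACS, deposited as 10 times its −log10, had a median of 75.5 and a highest value of 251.

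**Figure D1:**
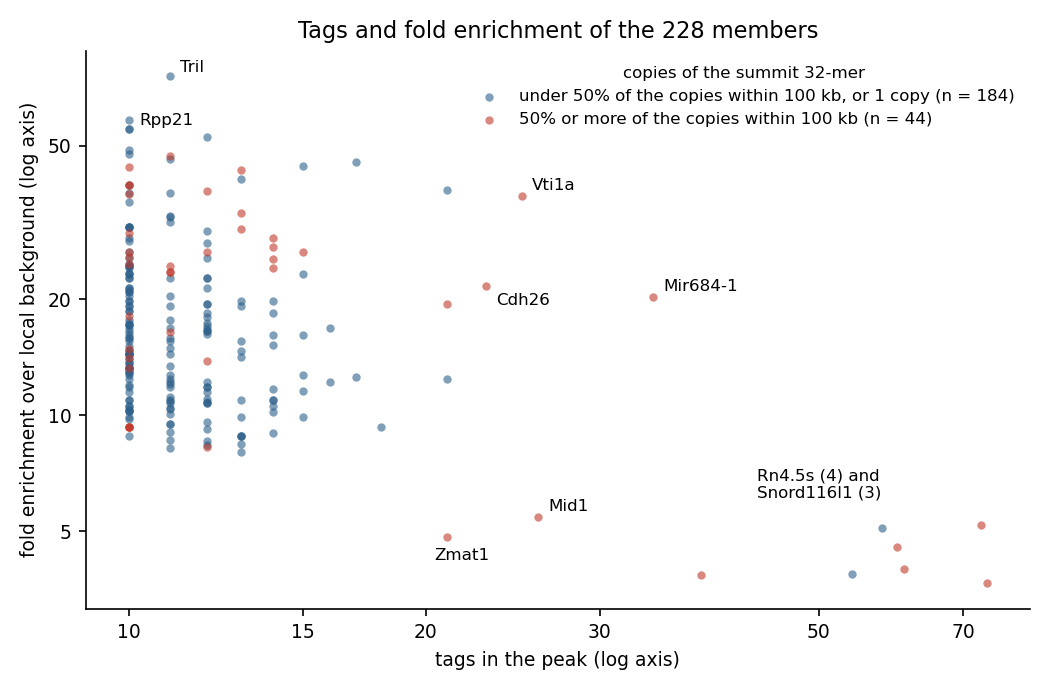
Tags (horizontal, log axis) against fold enrichment (vertical, log axis) for the 228 members, 1 point each. Red points have 50% or more of the genome copies of their summit 32-mer within 100 kb (n = 44), and blue points have fewer or are single copy (n = 184). The summit 32-mer is the most frequent 32-mer that covers the summit. The members with the most tags, in the Rn4.5s and Snord116l1 arrays, lie at 3.66 to 5.20-fold, and the highest fold enrichment, near Tril, goes with 11 tags.

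The members with the most tags were among those with the lowest fold enrichment. The 4 members of the Rn4.5s array held 74, 58, 54 and 38 tags at 3.66, 5.11, 3.87 and 3.85-fold. The 3 members of the Snord116l1 cluster held 73, 61 and 60 tags at 5.20, 4 and 4.56-fold. These 7 values of tags were the highest of all members. The peak in the intron of Smg6 followed with 34 tags at 20.3-fold, then a peak in intron 9 of Mid1, an E3 ubiquitin ligase gene that spans the pseudoautosomal boundary of the mouse X chromosome, with 26 tags at 5.45-fold, and the peak in intron 3 of Vti1a with 25 tags at 37.0-fold. Tags and fold enrichment thus ranked the members differently.

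In the Rn4.5s stretch, within 20 kb of its members, the ECC list held 11 peaks with 852 tags in all, or 270.5 RPM, which is tags in 1000000 filtered tags of the library. Of these 11 peaks, 5 were overlapped by a Limb or PNST peak, 2 were ECC only but closer than 5 kb to Rn4.5s, and 4 were members. The Limb list held 11 peaks there with 1349 tags (90.6 RPM), and the PNST list 6 peaks with 698 tags (59.0 RPM). The covered length was 8734, 6804 and 6907 bp in ECCs, Limb and PNST. All 3 lists thus held peaks in this array. For each of the 4 members, at least 1 stretch of 32 bases covering the summit was also found inside a Limb peak.

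In the Snord116l1 stretch the ECC list held 13 peaks with 933 tags (296.2 RPM), of which 7 were ECC only and 3 were members. The Limb list held 10 peaks with 1576 tags (105.8 RPM). The PNST list held 2 peaks with 59 tags (4.99 RPM). The gap from the 3 members to the nearest Limb peak was 1281, 3141 and 1280 bp. The members thus lay among Limb peaks of the same cluster, with covered lengths of 11669, 8367 and 501 bp in ECCs, Limb and PNST.

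In the Mid1 stretch the member was the single ECC only peak among 13 ECC peaks, and the other 12 were overlapped by a Limb or PNST peak. It was also the shortest member at 107 bp and lay 188 bp from the nearest Limb peak. The stretch held 18 Limb and 17 PNST peaks. The tags there summed to 790 in ECCs, 2713 in Limb and 545 in PNST (250.8, 182 and 46.1 RPM) over 5809, 8883 and 3568 bp. In all 3 stretches the sums run over peaks called separately in each library.

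**Figure D2:**
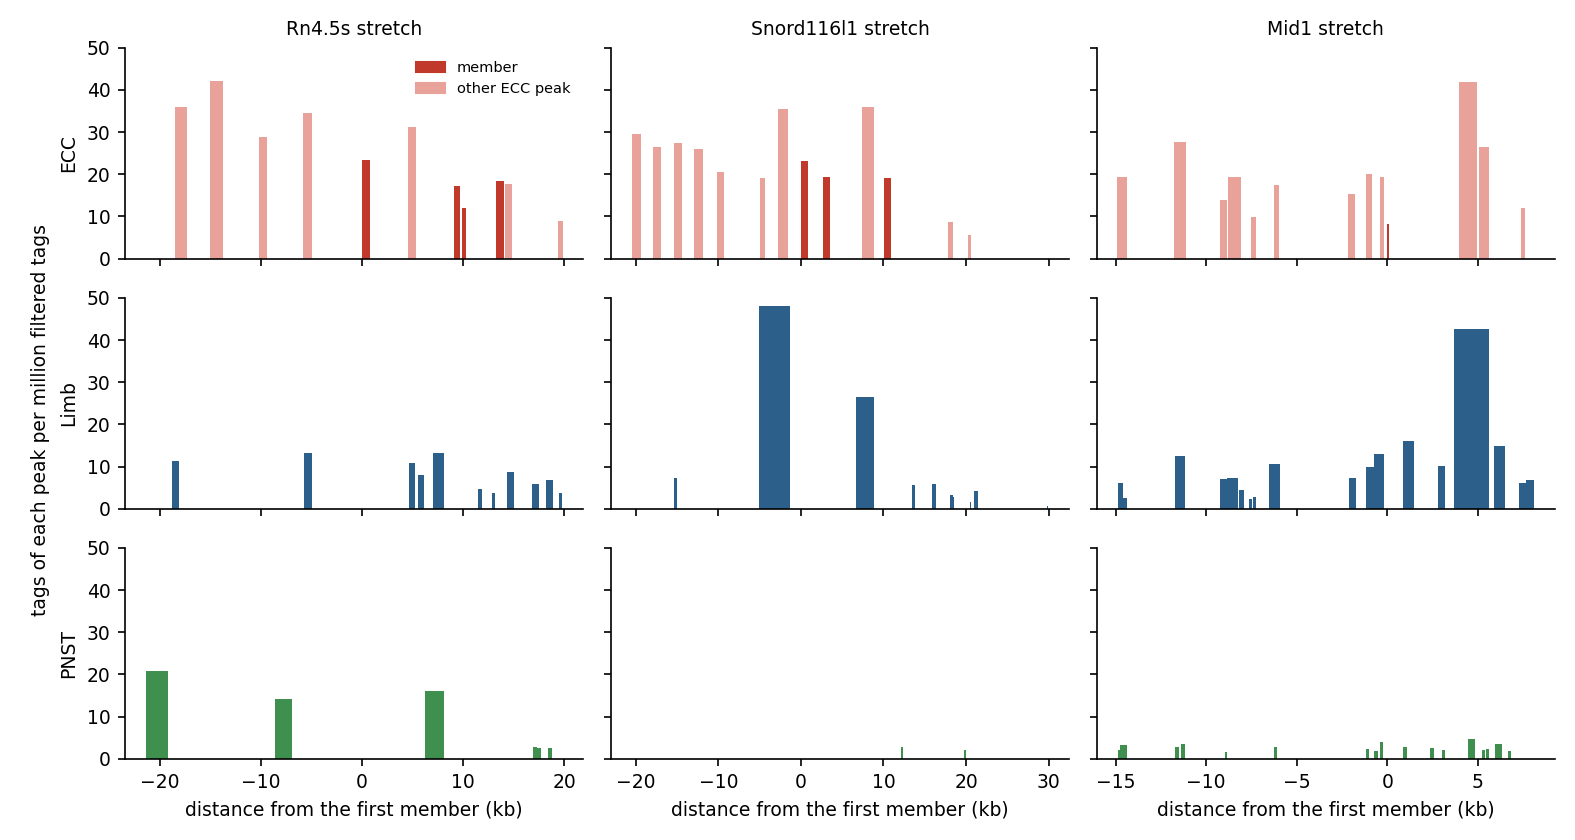
Tags (RPM) of each listed peak (vertical) along the stretches around the Rn4.5s, Snord116l1 and Mid1 members, by distance from the first member (horizontal, kb), in ECCs, Limb and PNST from top to bottom. Bars span the peaks, and dark red bars are members. Limb peaks lie among the members in each stretch, and the ECC peaks that are no members reach 42.2 RPM.

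Fold enrichment was highest in a different set of places. The peak near Tril, which encodes an accessory protein of Toll-like receptors, reached 75.9-fold with 11 tags, Tmem171 58.5-fold with 10, Rpp21 and Tmem202 55.2-fold with 10 each, and Npffr2 52.9-fold with 12. Below them came Maob, a monoamine oxidase gene, at 48.8-fold, Adck1 at 47.6-fold, Rerg at 47.0-fold, Bnip1 at 46.3-fold and D630037F22Rik at 45.4-fold. Their tags ranged from 10 to 17. Only Rpp21 among all members had its summit in sequence found once in the genome. That window had 71.3% GC, the peak lay 50 bp from a Limb peak, and it held 2 E-boxes, both outside the window.

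Repeated sequence was a property of almost every member. A summit was called repeated when it lay in a stretch of 32 bases that occurs more than once, on either strand, in the assembled chromosomes. This held for 227 of 228 members (99.6%, 95% Wilson interval 97.6 to 99.9), against 98.2% of all placed ECC peaks. It held for 98.2% of the ECC only distal peaks under 10 tags, 98.8% of the overlapped distal ECC peaks, 99.8% of the Limb only distal peaks and 99.6% of the PNST only distal peaks of 10 tags or more. None of these differences passed (Fisher's exact test, two-sided, Benjamini-Hochberg over 12 tests, adjusted p = 0.522, 0.871, 0.814 and 1). With stretches of 50 bases, the read length, the count of members was again 227. Against the overlapped peaks, of which 326 of 341 were repeated at this length, the difference of 3.96 percentage points then passed (Fisher's exact test, adjusted p = 0.0449). Intervals and tests treat peaks as separate although they come from 1 library and many share sequence, so they cover counting error only.

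The number of copies was very uneven. Copies at a summit are those of the most frequent stretch of 32 bases that covers it, so they are the highest count there. By this count the sequence at the summit occurred a median of 531.5 times (quartiles 19 and 1191), up to 1000997 times for a CA repeat near Drd1a. There were 72 members with 1000 copies or more (31.6%, against 48.9% of all placed ECC peaks) and 74 with at least 100 but under 1000 (32.5%, against 25.4%). Another 44 had at least 10 but under 100 (19.3%, against 15.3%), and 37 had 2 to 9 (16.2%, against 8.65%). The median was 945 copies over all placed ECC peaks and 934 in the ECC only distal peaks under 10 tags. It was 53 in the overlapped distal peaks, 1519 in the Limb only and 3267 in the PNST only peaks.

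Members separated into sequences repeated on the spot and sequences spread over the genome. In 44 members (19.3%) at least 50% of the copies lay within 100 kb of the summit, a limit set after the values were seen, and in most of the remaining members nearly all copies lay farther away. The share with local copies was 7.66% of the low-tag distal peaks, 20.8% of the overlapped distal peaks, 4.63% of the Limb only, 13.7% of the PNST only and 9.10% of all placed ECC peaks. Of the 44 local members, 34 were tandem repeats, meaning that at least 60% of their bases equalled the base a fixed shift of 2 to 100 bp further on, and the median shift over the 44 was 25 bp. Local copies were found in 11 of the 15 members with 20 tags or more and in 33 of the 213 members with fewer.

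**Figure D3:**
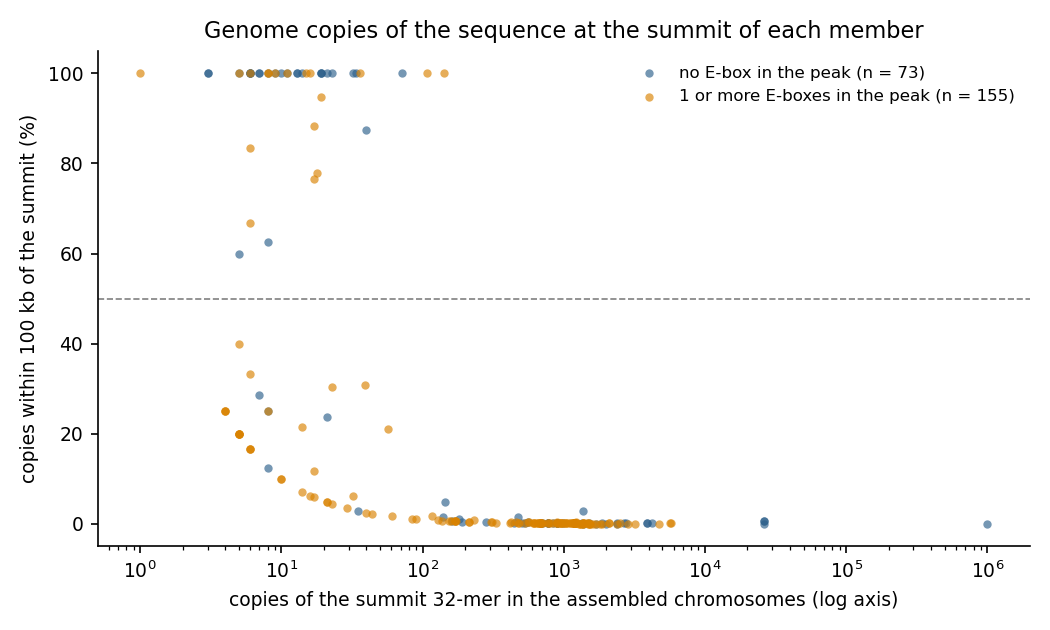
Copies of the summit 32-mer in the assembled chromosomes (horizontal, log axis) against the share of them within 100 kb of the summit (vertical) for the 228 members, 1 point each. The summit 32-mer is the most frequent 32-mer that covers the summit. Orange points have an E-box in the peak (n = 155), blue points have none (n = 73), and the dashed line is at 50%. The 44 local members above the line have 3 to 141 copies, and the point at 1 copy is Rpp21.

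Local and spread members differed in other values, given here as a description. Fold enrichment had a median of 23.5 over the 44 local members (range 3.66 to 47.0) and of 15.4 over the other 184 (3.87 to 75.9). Summits lay inside a protein-coding gene in 26 of 44 local members (59.1%) and in 60 of the other 184 (32.6%). An E-box anywhere in the peak was present in 17 of the 44 (38.6%) and in 138 of the 184 (75%). The share inside genes was thus higher and the share with an E-box lower at local repeats, while the 7 members with the most E-boxes were all local. Local members without any E-box included the peaks near Gria1, Ptprn2, Zdhhc14 and Hrh4, named after their values were seen, with units of 18, 18, 31 and 51 bp.

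Many members had their summit sequence inside a peak of another tissue at a different place. The summit 32-mer of 176 members (77.2%) was also found inside a Limb peak, and that of 58 (25.4%) inside a PNST peak. Over all placed ECC peaks, including those that another peak overlaps, the share was 88.3% in Limb peaks and 48.2% in PNST peaks. For the ECC only distal peaks under 10 tags it was 84.8% and 46.4%. Among members the share was 13 of 44 (29.5%) where copies were local and 163 of 184 (88.6%) elsewhere. The median number of copies was 11 in the local members and 773 in the others, and its part in this difference was not tested. The comparison sets were not split in this way. Of the 52 members whose summit sequence was in no Limb peak, 31 were local, among them the arrays near Vti1a, Cdh26, Cript, Smurf2 and Fggy.

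Members also shared sequence with each other. At least 1 stretch of 32 bases was common to a member and another member in 161 of 228 cases, which made 25 groups, and 67 members stood alone. Such sharing was not counted in the comparison sets or over all ECC peaks. It therefore has no background share and does not set the members apart. The 2 largest groups held 37 and 35 members, each on 17 chromosomes, with median fold enrichments of 11.9 and 15.1. The summit sequence of all 37 and all 35 was also in Limb peaks. An E-box within 50 bp of the summit was present in 12 of the 37 and 7 of the 35, and in 12 of the 14 members of the third group, which includes Serpine2, Npffr2, Bnip1, Adck1, Reps2 and Pdc. A group of 7, among them Dkk2, Tmem171 and Tmem202, was GC-rich (median 63.4%) with no E-box in the window and a median of 37.8-fold. A group of 4 near Gm9880, Sod2, Unc93a and Gm9992 lay within 5.9 Mb of chromosome 17, and none of its summit sequences was in a Limb or PNST peak.

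Chromosome 17 held 19 members, 0.199 per Mb, the highest density of any chromosome, and 12 of the 19 lay in its first 15 Mb. Chromosome 1 also held 19, at 0.0964 per Mb. Of the low-tag distal peaks 4.28% were on chromosome 17, against 8.33% of the members. The 3 members near Unc93a, which encodes a membrane protein, lay within 7526 bp of each other at 12, 12 and 10 tags and 17.01, 10.7 and 12.7-fold. In all, 213 different genes were the nearer gene of a member. Besides Rn4.5s with 4 and Snord116l1 and Unc93a with 3 each, 8 genes had 2 members.

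Around the summits, repeated sequence extended farther in members than in low-tag peaks. In the 100 bp at the summit, 99.3% of bases of members and 97.4% of bases of low-tag peaks lay in a repeated 32-mer. At 1 kb upstream by coordinate the values were 70.5% and 51.4%, and at 1 kb downstream 70.3% and 52.0%. GC content of members fell from 54.9% at the summit to 45.0% and 44.9% at the same distances. The density of E-boxes, in contrast, was 6.14 per kb at the summit of members and 6.67 and 5.35 per kb at 1 kb on either side.

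**Figure D4:**
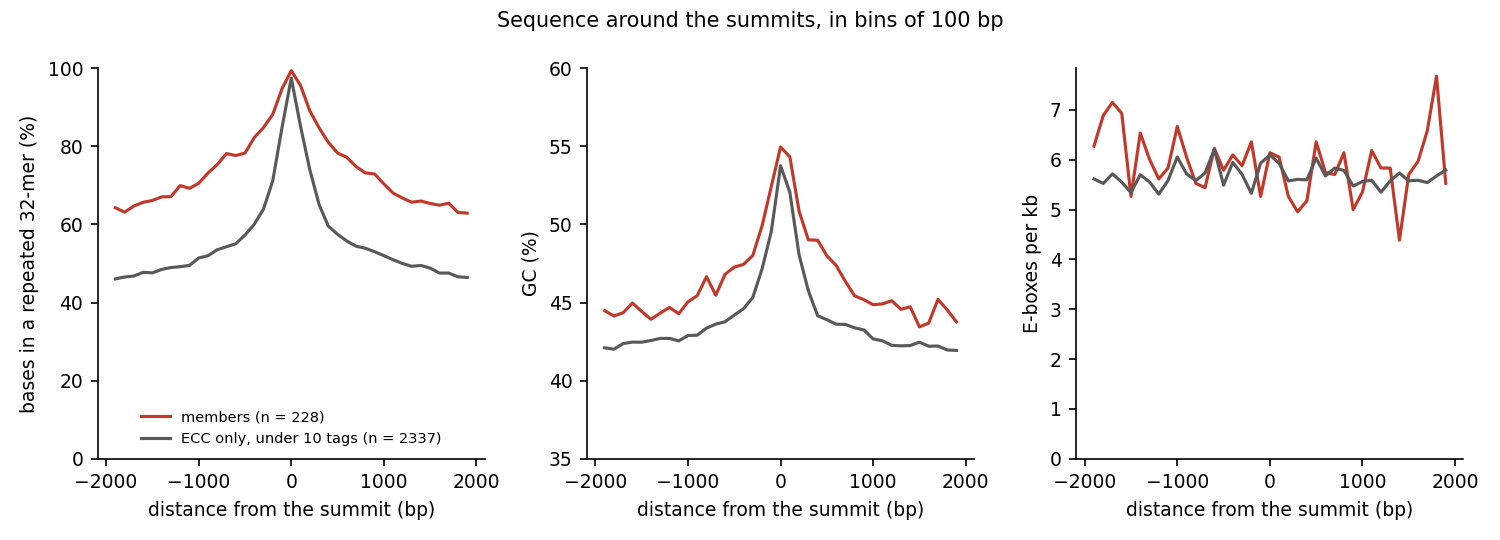
Bases in a repeated 32-mer (left), GC content (middle) and E-boxes per kb (right) by distance from the summit in bins of 100 bp, for members (red, n = 228) and ECC only distal peaks under 10 tags (grey, n = 2337). Lines are means over peaks with no error shown. Repeated sequence and GC content peak at the summit, whereas the E-box density has no peak there (6.14 per kb in members).

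An E-box within 50 bp of the summit was present in 88 of 228 members (38.6%, 95% Wilson interval 32.5 to 45.1), and in 38.5% of all placed ECC peaks in windows of the same 101 bases. The share of members was thus near the background. It was 40.6% in the ECC only distal peaks under 10 tags, a difference (members minus other) of −2.01 percentage points (95% interval −8.41 to 4.74, adjusted p = 0.871, Fisher's exact test). Against the Limb only distal peaks (39.9%) it was −1.31 (−7.49 to 5.24, Fisher's exact test, adjusted p = 0.878) and against the PNST only distal peaks (39.4%) −0.83 (−8.43 to 6.98, Fisher's exact test, adjusted p = 0.947). These 2 sets have the same limit of 10 tags, which is a lower share of their deeper libraries. The overlapped distal ECC peaks held an E-box in 29.6%, which was 8.98 points below the members (1.07 to 16.9), and this did not pass after adjustment over the 12 tests (Fisher's exact test, p = 0.0293, adjusted p = 0.352). With all sets held to a p-value of 1e-10 or smaller, the difference to the low-tag peaks turned to 21.1 points (4.34 to 36.1, Fisher's exact test, adjusted p = 0.229). No difference in the window was therefore detected after adjustment, and the intervals still allow differences of several points.

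Over the whole peak, where the searched length was no longer equal, the values differed from those of the window. An E-box was present in 155 of 228 members (68.0%) and in 50.1% of the overlapped distal ECC peaks, whose median length was also 294 bp, a difference of 17.8 points (Fisher's exact test, adjusted p = 0.000377). Lengths were spread differently, with quartiles of 255.75 and 334.25 bp in members and 187 and 401 bp in the overlapped peaks. The part of length in this difference was not tested. Against the low-tag peaks, with a median length of 171 bp, the difference was 11.5 points (Fisher's exact test, adjusted p = 0.00446). Peak length goes with the tags that separate members from low-tag peaks. E-box content and length therefore cannot be told apart in this comparison. The differences of 6.09 points to the Limb only peaks (61.9%, interval −0.318 to 11.9) and 6.53 to the PNST only peaks (61.5%, −1.14 to 13.8) did not pass (Fisher's exact test, adjusted p = 0.286 and 0.290). Over all placed ECC peaks, with a median length of 176 bp, the share was 54.7%. Tandem repeats made up 142 of 341 overlapped peaks (41.6%) and 48 of 228 members (21.1%), and their part in the difference was not tested.

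The E-boxes in the windows of members were of several forms, counted once per member and written in either direction. CACCTG or CAGGTG was in 27 members, CAGCTG in 23, CACATG or CATGTG in 17, CAACTG or CAGTTG in 12 and CAATTG in 11. CATATG was in 2 members, and CACGTG in 0, which allows a share of up to 1.32%. In the low-tag peaks CACGTG was in 34 of 2337 (1.45%) and CATATG in 106 (4.54%). The form CAGCTG was in 10.1% of members and 5.52% of low-tag peaks, and CACCTG or CAGGTG in 11.8% and 12.8%. Shares of the forms in members thus lay on both sides of those in low-tag peaks. They were not tested, and members with shared sequence were counted separately.

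GC content within 50 bp of the summit had a mean of 54.9% ± 5.85 (SD over 228 peaks) in members. It was 53.8% ± 7.25 in the low-tag peaks, 54.3% ± 7.55 in the overlapped peaks, 51.5% ± 7.38 in the Limb only and 39.96% ± 5.69 in the PNST only peaks. Members were within 1.18 points of both ECC sets and 14.97 points above the PNST only peaks, which came from another library. No test was made of GC content, and library and tissue cannot be told apart.

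**Figure D5:**
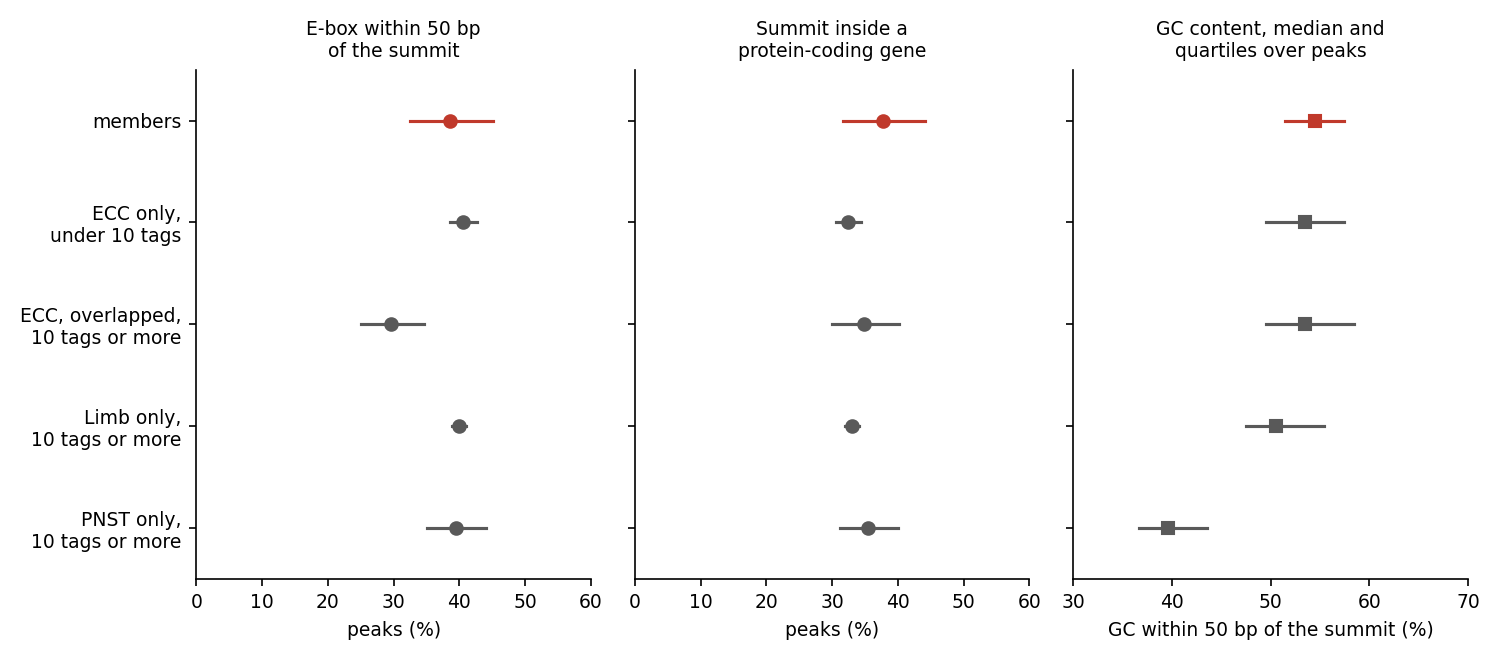
Share of peaks with an E-box within 50 bp of the summit (left), share with the summit inside a protein-coding gene (middle) and GC content of the same windows (right) in members (red) and the 4 comparison sets (grey). Bars on the shares are 95% Wilson intervals, and squares and bars on GC content are medians and quartiles over peaks. Members stand at 38.6%, 37.7% and a median of 54.5%.

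Most members lay outside protein-coding genes. Summits were intergenic in 142 members (62.3%), intronic in 81 (35.5%) and exonic in 5 (2.19%) by the GENCODE annotation of the same build. The 37.7% inside a gene (Wilson 31.7 to 44.2) compare with 30.3% of all placed ECC peaks. Those include peaks farther than 50 kb from a gene, which the rule kept out of the members. In the low-tag peaks, which met the same limits of distance, the share was 32.5%. The differences were 5.24 points to the low-tag peaks (−1.10 to 11.95), 2.82 to the overlapped peaks (−5.15 to 10.9), 4.72 to the Limb only (−1.41 to 11.2) and 2.26 to the PNST only peaks (−5.28 to 9.98). None passed (Fisher's exact test, adjusted p = 0.522, 0.871, 0.522 and 0.871).

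The distance that made a peak distal did not always mean the start of a gene. In 129 of 228 members (56.6%) the nearer distance of the list ended within 1 bp of the start coordinate of an annotated exon, and in 28 (12.3%) at a transcription start site (TSS) of a protein-coding transcript. Over all placed ECC peaks these shares were 54.2% and 12.3%, near those of the members. The median distance was 16739 bp in the list and 25035 bp to the nearest annotated TSS. By TSS, 163 members lay within 5 to 50 kb, 10 were closer and 55 were farther. At the lower limit of the list were the peaks near Nt5e at 5166 bp (4999 bp from the TSS), Cdk5rap2 at 5293 bp and Gm10666 at 5316 bp. At the upper limit were those near Cdh13 at 48566 bp, Pdc at 48363 bp and Kcnf1 at 47685 bp. The Cdh13 peak was 189685 bp from the nearest TSS, in intron 6 of the gene.

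Limb peaks were close to many members. The gap to the nearest Limb peak had a median of 4709.5 bp (quartiles 536 and 23659), and 72 members had one within 1 kb. For the low-tag peaks the median was 12648 bp, with 400 of 2337 within 1 kb. PNST peaks were farther, at a median of 106318.5 bp, with 2 members within 1 kb. The nearer gene of 211 members (92.5%) also had a Limb peak within 50 kb, and that of 82 (36.0%) a PNST peak, against 89.1% and 34.5% for the low-tag peaks. These shares of members were near those of the low-tag peaks and were not tested. A Limb peak overlapped 3 members by less than 5% of their length, at Drosha, Smad5 and Nt5e, the first of them named after its values were seen.

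The gene lists of this paragraph each had at most 2 genes near a member. Members named 266 genes within 50 kb on either side, 5.02% of the 5294 genes named by any ECC peak. By list, 1 of 11 cushion and valve transcription factors named by an ECC peak was near a member (9.09%). It was 1 of 24 Wnt genes (4.17%), 2 of 13 TGF-beta and BMP genes (15.4%) and 2 of 14 Notch, VEGF, EGF and FGF genes (14.3%). Among adhesion and guidance genes it was 2 of 52 (3.85%), and among synaptic and neuronal genes 2 of 39 (5.13%). With counts of 1 or 2 genes, these shares stood on both sides of 5.02%. None of 34 extracellular matrix genes, 5 limb patterning genes, 9 Schwann cell and nerve genes or 6 Twist partner and EMT genes was near a member. Of the 21 genes with an ECC peak that the study tested by ChIP-qPCR, Mid1 was near a member. The Mid1 region tested there was described as bound in both ECCs and limb buds, whereas the member is an ECC only peak. That test therefore does not speak for the member. These counts are small, and no list was tested.

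Nkx2-5, Hey2 and one of the peaks of Cdh13 were named after their values were seen, since each was the farther gene of its peak. Among the transcription factors, Nkx2-5, a regulator of heart development, was the farther gene of the Bnip1 peak (11 tags, 46.3-fold, chr17:26944783-26945045) at 30827 bp. That peak held 2 E-boxes in its window, and its summit sequence occurred 1135 times in the genome. Among Wnt genes, Dkk2, an antagonist of the pathway, had an 11-tag peak at 37.8-fold in intron 1, with no E-box. In BMP signaling, Smad5, which carries the signal to the nucleus, had a 10-tag peak at 15.9-fold in intron 1, with 2 E-boxes in the window and 3207 copies of its summit sequence. The Smurf2 array had 10 tags at 9.34-fold and lay 25907 bp from the gene. Each of these peaks had its summit in repeated sequence, and only the Smurf2 sequence was local, with all 108 copies within 100 kb.

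Fgf9 had an 11-tag peak at 22.7-fold, 20086 bp away, whose window holds 3 E-boxes and whose summit sequence had 4724 copies. Hey2, a target of Notch signaling, was the farther gene of a 10-tag peak at 9.77-fold, 16621 bp away, with no E-box. Among cadherins, Cdh13 had a 10-tag intronic peak at 11.9-fold and an 11-tag peak at 11.0-fold beyond the gene, and Cdh20 a 10-tag peak at 17.2-fold. Gria1, an AMPA receptor subunit, had a 10-tag peak at 44.1-fold in intron 2, at a local repeat of an 18-bp unit with 19 copies and no E-box. Lphn3, an adhesion receptor of synapses, had a 10-tag peak at 10.6-fold in intron 10. Except for Mid1, already described, the list genes thus had 10 or 11 tags each.

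The study's own gene lists for ECCs were chosen on these samples and are no independent evidence. Members named 11 of the 163 genes of its cell-cell signaling list that an ECC peak named (6.75%), among them Fgf9, Reln, an extracellular protein of neuronal migration, Serpine2, a protease inhibitor, and Prkce, a protein kinase C. They named 8 of 120 cell adhesion genes (6.67%), among them Cdh13, Cdh20, Cdh26 and Sdk1, 4 of 104 cell morphogenesis genes (3.85%) and 1 of 92 neurogenesis genes (1.09%). The share over all genes was the 5.02% given above.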

How the data were processed

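Peaks of 3 libraries, 1 per tissue, were deposited as lists that the authors made with MACS 1.4.2 after alignment of the reads to mm9 with Eland and Bowtie. The deposited values are a count of tags per peak, a score of 10 times −log10 of the p-value, a fold enrichment (a ratio), and distances in bp to the nearest gene on either side. The deposited Limb list, with 48965 peaks from the deepest library, is much longer than the limb peak set described in the study's text. Its header also counts many more tags than the limb bud reads given in that text. ECC only and all values on Limb peaks rest on this longer list. The file headers name no control file, whereas the methods describe an FVB/N genomic control. The filter kept 1 tag per position and the p threshold was 1e-05. Genome sequence, exons and transcripts came from the reference of the same build, NCBIM37 with GENCODE annotation, in which repeats are not masked.

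Windows of 50 bp on each side of the summit were searched for CANNTG, and 32-mers were counted on both strands of the assembled chromosomes. Copies at a summit are those of the most frequent 32-mer covering it. A summit sequence was counted inside a Limb or PNST peak when any 32-mer covering the summit occurred there. The 4 comparison sets were the ECC only distal peaks under 10 tags (n = 2337), the distal ECC peaks of 10 tags or more overlapped by a Limb or PNST peak (n = 341), and the Limb only (n = 7603) and PNST only (n = 454) distal peaks of 10 tags or more. The limit of 10 tags is 3.17 RPM in ECCs, 0.671 RPM in Limb and 0.846 RPM in PNST. In share of the library, the Limb and PNST sets are thus less strictly chosen than the members. Shares were compared by two-sided Fisher's exact tests, adjusted together over 12 tests (Python 3.11.15, scipy 1.17.1), with Newcombe intervals of the difference. The scripts were tested on simulated data. Members and lists were chosen with earlier results of these data known. Named genes were the 10 members with the most tags, the 10 with the highest fold enrichment, nearer genes in the lists, genes with 3 or more members and the 3 at either distance limit. A permutation test of GC content over peaks was planned and left out, since peaks of 1 library are not replicates. The sequence of 1 named member, near Tril, is not reported here.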

Additional observations from a re-analysis of the deposited data

How the results depend on the processing

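Of the 12 comparisons of shares, 2 changed their call when the whole peak replaced the window of 50 bp around the summit. The difference in E-boxes to the ECC only distal peaks under 10 tags turned from −2.01 to 11.5 percentage points (95% interval 4.88 to 17.6, Fisher's exact test, adjusted p = 0.00446), and that to the overlapped peaks grew from 8.98 to 17.8 points (9.61 to 25.6, Fisher's exact test, adjusted p = 0.000377). Low-tag peaks are shorter, so a whole peak offers fewer bases there. Overlapped peaks differ from members in the spread of their lengths. Length was not adjusted for in either comparison. The difference in repeated summits to the overlapped peaks was 3.96 points with 50-mers, an alternative chosen after seeing the data (Fisher's exact test, adjusted p = 0.0449), against 0.734 with 32-mers. The number of members was 49 at a p-value of 1e-10 or smaller, 27 at 15 tags or more and 545 at 8 tags or more. It was 225 when any overlap counted as shared, 156 when a peak within 1 kb did, 287 when 50% overlap was needed, 341 when only Limb and PNST peaks at 1e-10 counted, 168 at 10 to 50 kb and 252 by annotated TSS. With only the nearer gene counted, the cushion and valve transcription factors near a member were 0 and the Notch, VEGF, EGF and FGF genes 1. A difference that did not pass in either case changed its sign in 10 further cases. For E-boxes with the whole peak it was 6.09 points against the Limb only and 6.53 against the PNST only peaks, with 25 bp around the summit 1.12 and 1.88, and with all sets at a p-value of 1e-10 or smaller 21.1 against the low-tag peaks (4.34 to 36.1, Fisher's exact test, adjusted p = 0.229). For repeated summits it was −0.239 against the overlapped peaks at 1e-10, −0.00197 against the PNST only peaks with any overlap and 0.0744 against the Limb only peaks with 50-mers. For summits inside genes it was −0.707 against the overlapped peaks with all gene types and −2.09 against the PNST only peaks without peaks at local repeats. The other 74 of 92 alternative values kept their direction and call or, for counts, stayed within 1.5 times the value reported. The alternative restricted to single-copy summits gave no value, since 1 member was left. No paired analysis was possible because each tissue has 1 sample.

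Depth limits these lists. The ECC library was the smallest, its weakest peaks held 5 tags, and with 1 library per tissue neither tags nor the absence of an overlapping peak has a replicate error. A read that fits many copies cannot be placed by its sequence, and how such reads were placed is not given in the sources used here.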
